A study of Rattus norvegicus with 6 samples.

Results

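The genes described here are 39 rat genes of liver sugar and fat metabolism, named for their place in 4 pathways and chosen with earlier results of these data known: 11 of glycolysis, 4 of gluconeogenesis, 3 of glycogen metabolism and 21 of lipogenesis. They were read in liver RNA of 6 male Sprague-Dawley rats (Crl:CD(SD), bought at 5 weeks of age), 1 array per rat. In the ADBAQ group, 3 rats received 1-amino-2,4-dibromoanthraquinone, an anthraquinone dye intermediate, at 1000 mg/kg/day. The vehicle group was 3 rats given the carrier alone, for which the labels give purified water as the treatment and corn oil in the protocol. The sample titles and the design text put the sampling at 28 days and the treatment protocol states 9 weeks, so the length of exposure is not settled. Probes on the array carried the accessions of 37 of the 39 genes, 77 probes in all, among 15284 named genes. Srebf1 and Pnpla3 had no probe named for them and are not analysed here. The 77 probes of the 37 genes passed the filter on dim signal, and the probe chosen for each gene, the brightest, was well above background on all 6 arrays.

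Glycolysis splits glucose to pyruvate, and gluconeogenesis runs the reverse route in liver with its own enzymes at the irreversible steps. Glycogen is the store between them, and lipogenesis turns the acetyl units left over from glycolysis into fatty acids and then triglyceride. In hepatocytes insulin and glucose raise the glycolytic and lipogenic genes, largely through the transcription factors SREBP-1c (encoded by Srebf1) and ChREBP (encoded by Mlxipl), while glucagon raises gluconeogenic genes through cyclic AMP.

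The promoters of Pklr and Pck1 are printed because both genes were lower in ADBAQ livers and because each holds a textbook element of that control: the carbohydrate response element of liver pyruvate kinase and the cyclic AMP response element of phosphoenolpyruvate carboxykinase. They are RefSeq sequences on the GRCr8 build, 5′ to 3′ on the + strand, covering the 250 bases before the annotated start: chr2:176841014-176841263 for Pklr and chr3:182348322-182348571 for Pck1. Capitals mark the motif matches.
Pklr: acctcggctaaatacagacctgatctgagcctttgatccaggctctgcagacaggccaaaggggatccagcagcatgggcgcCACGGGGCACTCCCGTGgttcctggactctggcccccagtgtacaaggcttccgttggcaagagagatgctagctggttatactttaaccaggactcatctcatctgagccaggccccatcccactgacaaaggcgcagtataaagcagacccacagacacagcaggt
Pck1: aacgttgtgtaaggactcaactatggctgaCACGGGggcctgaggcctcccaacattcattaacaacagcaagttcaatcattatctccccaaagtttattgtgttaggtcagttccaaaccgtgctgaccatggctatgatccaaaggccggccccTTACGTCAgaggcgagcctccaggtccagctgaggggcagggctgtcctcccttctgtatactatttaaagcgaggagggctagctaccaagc
The Pklr match, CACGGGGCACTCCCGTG, lies 168 to 152 bases before the start and has the form of CACGNG and its mirror CNCGTG with 5 bases between them. Searched on both strands of 300-base windows (250 bases before and 50 after the start), this form occurred in 11 of 33469 windows, 0.033% of them. Of the 33 members with a window, only Pklr held it. The Pck1 matches are TTACGTCA, 93 to 86 bases before the start, and CACGGG, 220 to 215 bases before it. TTACGTCA occurred in 0.807% of all windows and in no other member's window. CACGGG, which also forms the left arm of the Pklr element, occurred in 9.63% of windows. Among the 33 members with a window it stood in 9, the lower genes Pklr and Pck1 and also Pfkl, Eno1, Srebf1, Acacb, Elovl5, Scd2 and Gpam. The palindromic E-box CACGTG occurred in 6.42% of windows and, among the members, in those of Ldha, Ppp1r3c and Elovl5. The consensus cyclic AMP element TGACGTCA occurred in 1.83% and in those of Ldha, Elovl5 and Pnpla3. The core bound by the aryl hydrocarbon receptor, GCGTG, was in 29.7% of all windows. It was in 18 of the 33 members with a window, and in 8 of the 12 lower members with one. The percentages count windows and the members are counted as genes, so the shares are not like for like, and no enrichment was tested. These are matches of letters and no binding was measured.

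Levels are given as log2 of the processed signal minus the 75th percentile of the same array, so that 0 is the brightness of the probe at that percentile and 1 unit is a factor of 2. Log2 fold changes are ADBAQ minus vehicle, with the moderated standard error of limma. A gene is called lower or higher at a Benjamini-Hochberg adjusted p by limma under 0.05 over all 38695 probes kept. Of the 37 measured members 14 were lower in ADBAQ livers (37.8%) and 1 was higher (2.70%), against 11.3% lower and 9.05% higher among the 11344 named genes tested. Together these were 15 of 37 members, against 20.3% of all named genes. Since the members were chosen with results known, these shares are a description. In 15 members the 3 ADBAQ rats all lay below the 3 vehicle rats and in 4 they all lay above. Over all named genes 25.1% had groups apart with ADBAQ lower and 21.2% with ADBAQ higher, 46.3% in all. The median log2 fold change was -0.19 over the members and -0.04 over all named genes. The count of lower members was 9 without ADBAQ replicate 1, 8 without ADBAQ replicate 3 and 9 without vehicle replicate 2. In the same fits the 1281 lower among all named genes became 520, 618 and 691. Gckr, Pfkfb1, Pklr, Ldha, Slc37a4, Mlxipl and Lpin1 were called with each array left out in turn.

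The scale itself bears on these directions. When arrays were scaled to the 280 spike-in control spots in place of the 75th percentile, 0.76 was added to every log2 fold change and the median over all named genes became 0.72. On that scale the members' median was 0.57. Of the 14 lower members 7 stayed below 0 on it: Pfkfb1 (-0.95), Scd (-1.28), Lpin1 (-0.52), Pklr (-0.35), Gckr (-0.30), Slc37a4 (-0.25) and Pck1 (-0.21). Pfkfb1, Pklr and Scd were called lower on it. The word lower is used below relative to the 75th percentile of the array. The lower members not among those 7 turned in sign with spike-in scaling.

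**Figure D1:**
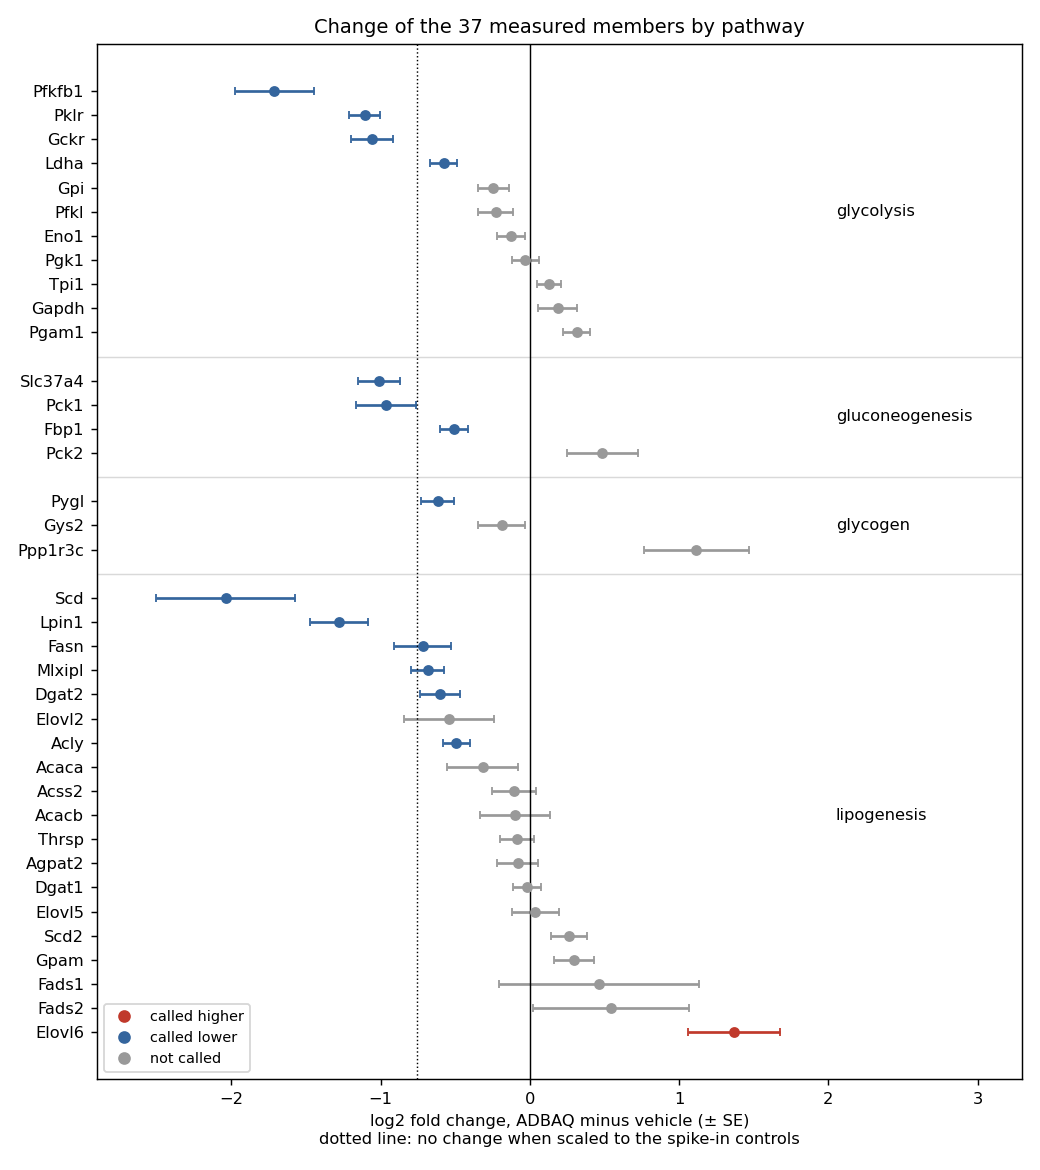
Log2 fold change of each measured member, ADBAQ minus vehicle (x axis, log2 units), with bars of 1 moderated SE, grouped by pathway down the page and coloured by whether the gene was called; the dotted line marks where no change would lie with spike-in scaling. The called lower genes run from -2.04 for Scd to -0.49 for Acly, and Elovl6, at 1.37, is the called higher gene.

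Of the 11 glycolytic members 4 were lower in ADBAQ livers (36.4%) and none was called higher by limma, with 1 higher at an unadjusted p under 0.05. Counts at an unadjusted p, here and below, have no share of all named genes beside them. The lower genes were Gckr, Pfkfb1, Pklr and Ldha. The other members gave uncalled differences of -0.25 to 0.31, among them the phosphofructokinase subunit Pfkl (-0.23). With spike-in scaling the sign of Ldha turned and those of Gckr, Pfkfb1 and Pklr did not. The regulators came first. Gckr, a regulatory protein of hepatocyte glycolysis, had levels of 5.71, 6.13 and 6.07 in ADBAQ livers, against 6.89, 7.11 and 7.10 in vehicle livers. The groups were apart, and its log2 fold change was -1.06 ± 0.14 (limma adjusted p = 0.00861), a level 2.08-fold lower. Pfkfb1, the liver bifunctional enzyme that makes and breaks down the sugar phosphate signal for phosphofructokinase, had levels of 2.84, 3.07 and 2.86 in ADBAQ livers and 4.05, 4.75 and 5.10 in vehicle livers. The vehicle rats spread more than the ADBAQ rats and still did not meet them. The difference was -1.71 ± 0.26 (limma adjusted p = 0.0115), 3.27-fold lower, and its other probe gave -1.73.

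Pklr, the liver pyruvate kinase that makes the pyruvate from which fat can be built, read 1.79, 1.85 and 1.66 in ADBAQ livers and 2.87, 2.76 and 3.00 in vehicle livers. Rats of one group lay within 0.3 of each other and the groups about 1 unit apart, at -1.11 ± 0.10 (limma adjusted p = 0.00358). The other Pklr probe gave -0.64, also called (limma adjusted p = 0.0102), so the size of the change depends on the probe. Ldha, the lactate dehydrogenase subunit that interconverts pyruvate and lactate, was among the brighter members, with levels of 8.29, 8.31 and 8.34 in ADBAQ livers and 8.96, 8.92 and 8.79 in vehicle livers. Its difference of -0.58 ± 0.09 (limma adjusted p = 0.0112) was small and the groups were far apart relative to their spread.

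The other 7 glycolytic members were not called. Gpi, the glucose phosphate isomerase, differed by -0.25 ± 0.10 with the groups apart (limma adjusted p = 0.143), and Pfkl, the liver subunit of phosphofructokinase, by -0.23 ± 0.12 (limma adjusted p = 0.218). Triose phosphate isomerase (Tpi1) gave 0.13 ± 0.08, Gapdh 0.19 ± 0.13, phosphoglycerate kinase (Pgk1) -0.03 ± 0.09 and enolase (Eno1) -0.13 ± 0.09, with limma adjusted p of 0.307, 0.346, 0.838 and 0.371. The 5 probes for Gapdh, which joins its substrate to phosphate and yields NADH, ranged between 0.04 and 0.24. Phosphoglycerate mutase (Pgam1) lay closest to the threshold. It read 6.53, 6.41 and 6.51 in ADBAQ livers and 6.24, 6.10 and 6.17 in vehicle livers, every ADBAQ rat above every vehicle rat, with a difference of 0.31 ± 0.09 (limma adjusted p = 0.0547). It was called with quantile normalization, with spike-in scaling, with either other filter on dim probes and with either other variance model.

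Of the 4 gluconeogenic members 3 were lower (75%) and none was called higher, by limma or at an unadjusted p under 0.05. With spike-in scaling the sign of Fbp1 turned and those of Slc37a4 and Pck1 did not. Slc37a4, the transporter that carries glucose 6-phosphate into the endoplasmic reticulum where it is cut to glucose, read 5.25, 5.32 and 4.97 in ADBAQ livers and 6.39, 6.07 and 6.11 in vehicle livers. The groups were separated by about 1 unit in both of its probes, with a difference of -1.01 ± 0.14 (limma adjusted p = 0.00944). Pck1, the cytosolic phosphoenolpyruvate carboxykinase whose promoter is shown above, read 5.50, 5.48 and 5.96 in ADBAQ livers and 6.90, 6.66 and 6.29 in vehicle livers. Replicate 3 of each group came closest to the other group, and the difference was -0.96 ± 0.20 (limma adjusted p = 0.0258), with -0.92 from the other probe. It was no longer called without ADBAQ replicate 1 or 2 or vehicle replicate 1 or 2, with an limma adjusted p up to 0.0831.

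Fbp1, the fructose bisphosphatase that opposes phosphofructokinase, was the brightest gene of the 4, at 8.98, 8.83 and 8.83 in ADBAQ livers and 9.47, 9.38 and 9.32 in vehicle livers. The difference of -0.51 ± 0.09 (limma adjusted p = 0.0177) kept the groups apart, with -0.44 from the other probe. The call was lost with quantile normalization, and without ADBAQ replicate 2 or 3 or vehicle replicate 2 (limma adjusted p up to 0.0606). Pck2, the mitochondrial carboxykinase, did not share the direction: it read 3.50, 3.06 and 2.59 in ADBAQ livers and 2.54, 2.76 and 2.39 in vehicle livers. The groups overlapped and the difference of 0.49 ± 0.24 was not called (limma adjusted p = 0.196), although all 3 of its probes were above 0 and it was called higher with normexp background correction.

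Of the 3 glycogen members 1 was lower (33.3%) and none was called higher by limma, with 1 higher at an unadjusted p under 0.05. Pygl, the liver glycogen phosphorylase that frees glucose from the store, read 2.88, 3.05 and 2.96 in ADBAQ livers and 3.56, 3.44 and 3.74 in vehicle livers. The groups were apart at -0.62 ± 0.11 (limma adjusted p = 0.017). With spike-in scaling the sign turned, at 0.14, and the call was lost without ADBAQ replicate 1 or 3 (limma adjusted p up to 0.0608). Gys2, the liver glycogen synthase that builds the store, read 5.93, 5.74 and 5.70 in ADBAQ livers and 6.28, 5.94 and 5.72 in vehicle livers, which overlapped, and differed by -0.19 ± 0.16 (limma adjusted p = 0.433). Ppp1r3c, the glycogen-targeting subunit that brings a protein phosphatase to glycogen synthase and phosphorylase, read 5.29, 5.60 and 5.90 in ADBAQ livers and 5.13, 3.78 and 4.54 in vehicle livers. All ADBAQ rats lay above all vehicle rats, and the wide vehicle spread left the difference of 1.12 ± 0.35 at an limma adjusted p of 0.0727. A dimmer probe of the gene was called (1.00, limma adjusted p = 0.0495), and the chosen probe was called without vehicle replicate 1 (limma adjusted p = 0.0378) and with normexp or spike-in scaling.

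**Figure D2:**
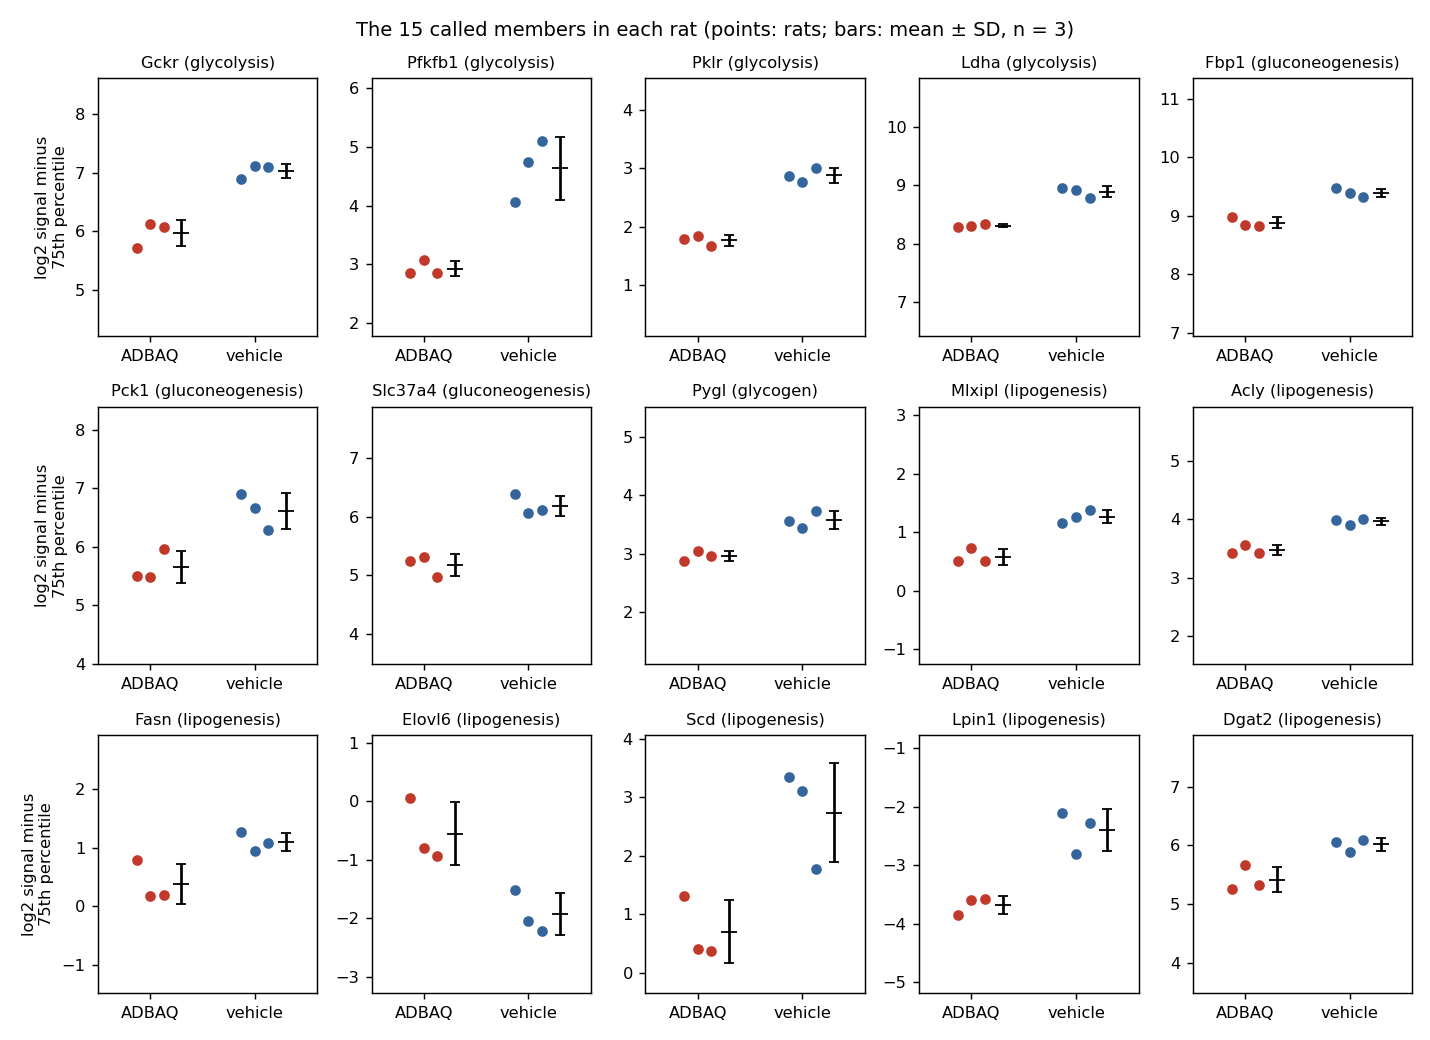
Level of each called member in every rat (y axis, log2 signal minus the array's 75th percentile), ADBAQ rats left of vehicle rats, with points for rats and bars for the mean ± SD (n = 3 each); every panel spans the same number of log2 units. In all 15 panels the groups are apart, with the widest scatter in Scd and the tightest in Ldha, Fbp1 and Acly. The panels were picked by the call, so this separation is not separate support. Of all named genes 46.3% had groups apart.

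Of the 19 measured lipogenic members 6 were lower (31.6%) and 1 was higher (5.26%), and the lower ones came from several steps of the route. With spike-in scaling Scd and Lpin1 stayed below 0 and the signs of Mlxipl, Acly, Fasn and Dgat2 turned. The count of 6 was 3 without ADBAQ replicate 1, 2 without ADBAQ replicate 3, 3 without vehicle replicate 1 or 2 and 4 without ADBAQ replicate 2 or vehicle replicate 3. The lower count over all named genes fell too, from 1281 to between 520 and 851. Mlxipl encodes ChREBP, the glucose-sensing factor that acts on the carbohydrate response element. It read 0.51, 0.74 and 0.50 in ADBAQ livers and 1.16, 1.26 and 1.38 in vehicle livers, groups apart, at -0.68 ± 0.11 (limma adjusted p = 0.0131). Thrsp, a small nuclear protein that rises with lipogenic feeding, differed by only -0.09 ± 0.12 (limma adjusted p = 0.627).

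Among the enzymes that make palmitate, Acly, which splits citrate to cytosolic acetyl-CoA, read 3.43, 3.56 and 3.43 in ADBAQ livers and 3.99, 3.90 and 4.01 in vehicle livers. Its difference was -0.49 ± 0.09 (limma adjusted p = 0.0173). The call was lost without ADBAQ replicate 1 or 3 (limma adjusted p up to 0.0626), its other probe gave -0.26 and was not called, and with spike-in scaling the gene was called higher, at 0.26. Fasn, the fatty acid synthase, read 0.78, 0.17 and 0.20 in ADBAQ livers and 1.27, 0.96 and 1.08 in vehicle livers, with -0.72 ± 0.19 just past the threshold (limma adjusted p = 0.0479) and -0.71 from its other probe. That call held without ADBAQ replicate 1 and was lost without any other single array, with an limma adjusted p up to 0.129, and it was also lost with quantile normalization, median centring, no filter on dim probes or array weights. Acaca, the acetyl-CoA carboxylase that feeds the synthase, was dim. At its brightest probe the groups overlapped, at -2.68, -2.91 and -2.99 in ADBAQ livers and -2.09, -3.01 and -2.54 in vehicle livers (-0.31 ± 0.24, limma adjusted p = 0.382). Its other probe had the groups apart, at -0.33 ± 0.10, and was not called either (limma adjusted p = 0.0659). Acacb, the carboxylase of the mitochondrial surface, differed by -0.10 ± 0.23 and Acss2, which makes acetyl-CoA from acetate, by -0.11 ± 0.15, with limma adjusted p of 0.785 and 0.637.

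The desaturases and elongases, which finish the fatty acid chain, gave the widest range of values. Scd, the stearoyl-CoA desaturase that makes oleate, read 1.32, 0.41 and 0.37 in ADBAQ livers and 3.34, 3.10 and 1.77 in vehicle livers. The groups were apart, but vehicle replicate 3 lay much nearer the ADBAQ rats than the other two vehicle rats did. The difference of -2.04 ± 0.47 was 4.10-fold, the largest among the members (limma adjusted p = 0.0325), with -2.11 from the other probe. It remained called without vehicle replicate 3 and not without any other array, with an limma adjusted p up to 0.0937. Elovl6, which lengthens palmitate to stearate, read 0.06, -0.80 and -0.93 in ADBAQ livers and -1.52, -2.04 and -2.21 in vehicle livers. Every ADBAQ rat was above every vehicle rat, at 1.37 ± 0.31 or 2.58-fold higher (limma adjusted p = 0.0312). With normexp background correction the difference was 0.89. The second Elovl6 probe was well above background on no vehicle array and was kept through the ADBAQ arrays alone, so it is not separate support. Its bound was 2.04-fold higher in ADBAQ livers, but its log2 fold change was 0.15 with normexp, which is under that bound. The call of Elovl6 at its chosen probe held without vehicle replicate 1 and was lost without any other array, with an limma adjusted p up to 0.087.

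Scd2, the desaturase isoform less used by adult liver, gave 0.26 ± 0.12 with its brightest probe (limma adjusted p = 0.173), and -0.58 and 0.08 with its other probes. Fads1 and Fads2, the desaturases that make polyunsaturated fatty acids, varied most between rats. Fads1 read 3.85, 2.62 and 1.15 in ADBAQ livers and 2.57, 2.12 and 1.53 in vehicle livers, with an SD of 1.35 in ADBAQ livers, the largest among the members, and 0.52 in vehicle livers. Fads2 read 4.17, 3.15 and 2.25 in ADBAQ livers and 3.29, 2.48 and 2.17 in vehicle livers. In both genes the groups overlapped. Their differences, 0.46 ± 0.67 for Fads1 and 0.54 ± 0.52 for Fads2, were within that spread (limma adjusted p = 0.656 and 0.492). Elovl2, an elongase of polyunsaturated chains, read 3.88, 3.28 and 2.94 in ADBAQ livers and 4.38, 3.63 and 3.71 in vehicle livers, which overlapped (-0.54 ± 0.30, limma adjusted p = 0.242). Elovl5, another such elongase, differed by 0.04 ± 0.16 (limma adjusted p = 0.884).

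**Figure D3:**
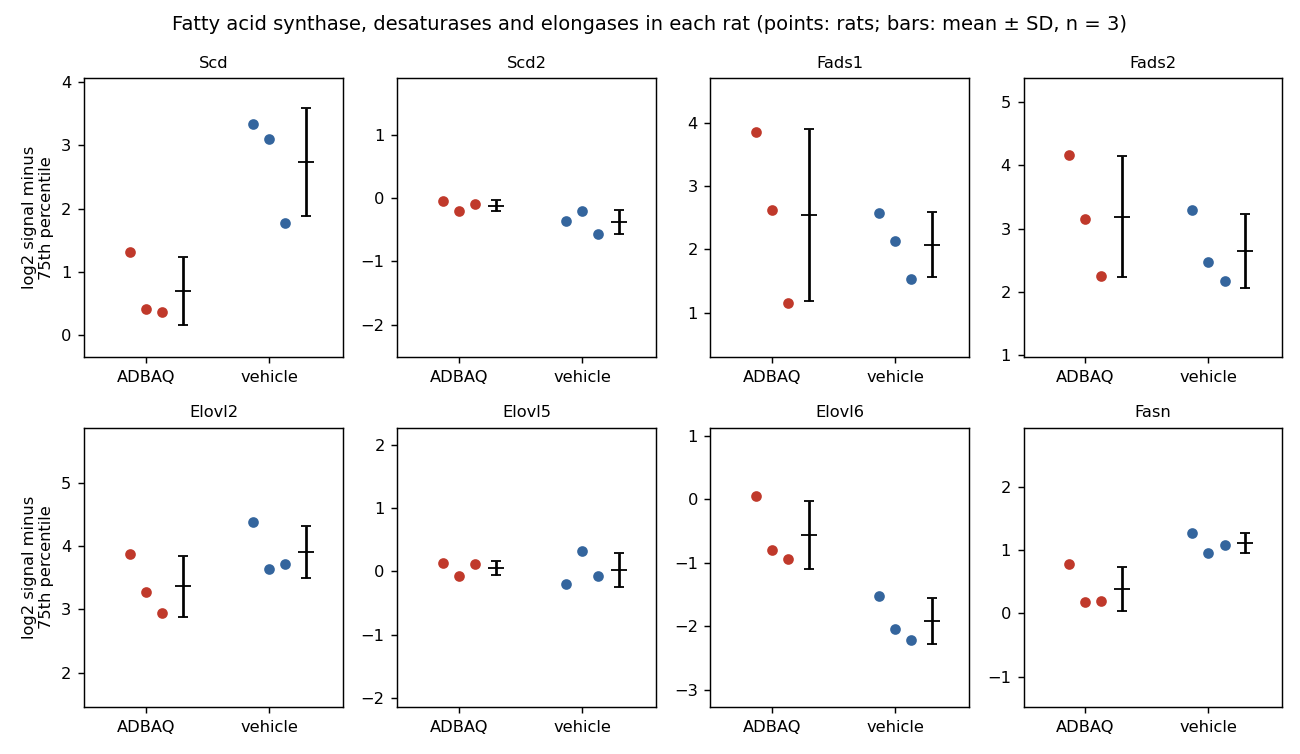
Level of the desaturase and elongase members and of Fasn in every rat (y axis, log2 signal minus the array's 75th percentile), ADBAQ rats left of vehicle rats, with points for rats and bars for the mean ± SD (n = 3 each). Scd stands lower and Elovl6 higher in the ADBAQ rats, and Fads1, at 3.85, 2.62 and 1.15 in ADBAQ rats, has the widest scatter.

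Triglyceride assembly held the remaining lower genes. Lpin1, a phosphatidate phosphatase that makes diacylglycerol, read -3.85, -3.60 and -3.58 in ADBAQ livers and -2.11, -2.80 and -2.28 in vehicle livers. This dim gene, read by 1 probe, was 2.43-fold lower with the groups apart (-1.28 ± 0.20, limma adjusted p = 0.0114), and the difference was -0.88 with normexp background correction. Dgat2, the acyltransferase that closes the route to triglyceride, read 5.26, 5.66 and 5.32 in ADBAQ livers and 6.05, 5.90 and 6.10 in vehicle livers. The difference of -0.60 ± 0.13 was called (limma adjusted p = 0.0308), as it was in the other probes at -0.52 and -0.55. Leaving out ADBAQ replicate 2 kept that call and leaving out any other array lost it, with an limma adjusted p up to 0.0923. Dgat1, the acyltransferase of the same step from a separate protein family, differed by -0.02 ± 0.09 (limma adjusted p = 0.916). Gpam, which adds the first acyl chain to glycerol phosphate, gave 0.29 ± 0.14 and Agpat2, which adds the next, gave -0.08 ± 0.14, with limma adjusted p of 0.173 and 0.706.

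Set side by side, the median log2 fold change was -0.74 for gluconeogenesis, -0.23 for glycolysis, -0.19 for glycogen and -0.10 for lipogenesis, beside -0.04 for all named genes. With single arrays left out the glycogen median ranged from -0.32 (without vehicle replicate 3) to -0.04 (without vehicle replicate 1), and that of lipogenesis from -0.23 (without ADBAQ replicate 1) to -0.02 (without ADBAQ replicate 3), the last above the -0.04 of all named genes in that fit. With spike-in scaling all 4 medians turned positive, at 0.02, 0.53, 0.57 and 0.65 in the same order, as the same 0.76 was added to every gene. As medians over a pathway's genes of the difference from the vehicle mean, gluconeogenesis stood at -0.67, -0.71 and -0.61 in the ADBAQ rats and at 0.14, 0.02 and -0.13 in the vehicle rats. Glycolysis stood at -0.18, -0.38 and -0.15 in ADBAQ rats and between -0.00 and 0.02 in vehicle rats. For both of these pathways each ADBAQ rat lay below each vehicle rat. The vehicle rats themselves set the reference for each gene, which draws their medians towards 0, so their narrow range is not a measure of spread. For the same reason, groups lying apart on this scale are not support for a difference, nor is a contrast with pathways whose groups overlap. Glycogen stood at -0.05, -0.24 and -0.28 in ADBAQ rats and at 0.30, -0.14 and 0.06 in vehicle rats. Lipogenesis stood at -0.03, -0.13 and -0.40 in ADBAQ rats and at 0.13, -0.07 and -0.06 in vehicle rats. For glycogen and lipogenesis the groups overlapped. The lipogenesis median exceeded that of glycolysis by 0.13, but by 0.01 without ADBAQ replicate 1, 0.03 without ADBAQ replicate 2, 0.06 without vehicle replicate 2, 0.05 without vehicle replicate 3 and 0.27 without ADBAQ replicate 3. No difference between pathways was tested, and the gluconeogenesis and glycogen medians rest on 4 and 3 genes.

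Single genes differed within each pathway. Lipogenic genes ran from -2.04 to 1.37, glycolytic genes from -1.71 to 0.31, glycogen genes from -0.62 to 1.12 and gluconeogenic genes from -1.01 to 0.49. Of the 15 called members 7 differed by at least 2-fold. The 22 that were not called lay between -0.54 and 1.12. The SD between rats was larger in ADBAQ livers than in vehicle livers for 18 of 37 members, including 12 of the 19 lipogenic ones. Of 29 members read by several probes, 26 had all probes on one side of 0, the exceptions being Pgk1, Acacb and Scd2.

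**Figure D4:**
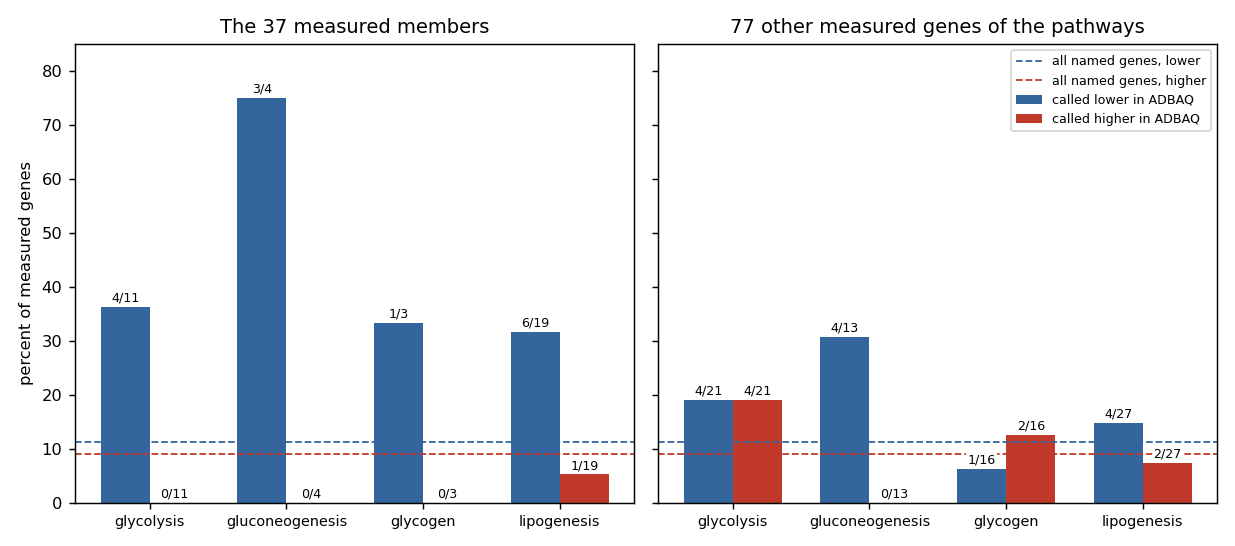
Percent of measured genes called lower and called higher in ADBAQ livers (y axis) for the members of each pathway (left) and for other genes of the same pathways (right), with dashed lines for all named genes tested. The members' lower bars stand at 75% for gluconeogenesis and between 31.6% and 36.4% for the other pathways, above the 11.3% of all named genes, on 3 to 19 genes each. With spike-in scaling 3 members were lower and 20 higher, where 188 of all 11344 named genes were lower and 8942 higher.

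Other genes of the same pathways, 84 listed from textbook knowledge and 77 measured, were lower in 13 (16.9%) and higher in 8 (10.4%) cases, with a median log2 fold change of -0.12. Both shares were nearer the background of 11.3% and 9.05% than the members' shares were. With spike-in scaling 2 were lower and 60 higher, where 188 of all 11344 named genes were lower and 8942 higher. In gluconeogenesis 4 of 13 were lower and none was called higher by limma, with 1 higher at an unadjusted p under 0.05. In glycolysis 4 of 21 were lower and 4 higher, in glycogen 1 of 16 was lower and 2 were higher, and in lipogenesis 4 of 27 were lower and 2 higher. Leaving out single arrays brought the count of lower genes to between 6 and 8 and the count of higher genes to 3 or 4, so that leaving out any of the 6 arrays moved both counts by more than 1.5 times. The counts over all named genes, 1281 lower and 1027 higher, became 520 to 851 and 402 to 714 in these fits.

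Among the other glycolytic genes Aldoa, the aldolase of muscle and most other tissues, was higher (0.67 ± 0.10, limma adjusted p = 0.0113). Hk3, a hexokinase best known from white blood cells, was higher too (0.72 ± 0.15, limma adjusted p = 0.0246, and up to 0.0794 with an array left out, kept without ADBAQ replicate 3). Bpgm, the bisphosphoglycerate mutase of red cells, read 3.80, 3.38 and 3.42 in ADBAQ livers and 2.49, 2.54 and 2.56 in vehicle livers (1.01 ± 0.13, limma adjusted p = 0.00816). Pdk4, a kinase that shuts pyruvate dehydrogenase, was not called (0.40 ± 0.31, limma adjusted p = 0.389).

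G6pc1, the glucose 6-phosphatase that works with Slc37a4, read 5.43, 6.13 and 6.51 in ADBAQ livers and 6.95, 6.43 and 6.84 in vehicle livers. ADBAQ replicate 3 overlapped the vehicle rats, and the difference of -0.72 ± 0.29 was not called (limma adjusted p = 0.133). Pcx, listed as Pc, the pyruvate carboxylase that opens gluconeogenesis, was lower with the groups apart, at 7.72, 7.71 and 7.35 in ADBAQ livers and 8.29, 8.26 and 8.12 in vehicle livers (-0.63 ± 0.13, limma adjusted p = 0.0241). Its call held without vehicle replicate 3 and was lost without any other array (limma adjusted p up to 0.0658), and its sign turned with spike-in scaling (0.12). Irs2, an insulin receptor substrate, was lower at -1.09 ± 0.14 with its brightest probe (limma adjusted p = 0.00803). Its other kept probes gave -0.58 and -0.40 and were not called (limma adjusted p = 0.0679 and 0.0505). Got1, the cytosolic aspartate aminotransferase, was lower at -1.01 ± 0.18 (limma adjusted p = 0.0167, and 0.0523 without vehicle replicate 3). Foxo1, a transcription factor of gluconeogenic genes that insulin signalling restrains, was lower at -0.48 ± 0.10 (limma adjusted p = 0.0242, and up to 0.0809 with an array left out, kept without vehicle replicate 2), with its sign turned by spike-in scaling (0.28). Ppargc1a, its coactivator, was not measured, its probe being well above background on 1 array of each group.

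In glycogen metabolism Gyg1, the glycogenin that primes new chains, was higher at 0.74 ± 0.16 (0.33 with normexp), and Phkb, a phosphorylase kinase subunit, at 0.36 ± 0.10. Gys1, the glycogen synthase of muscle, was lower at -0.34 ± 0.09, with sign turned by spike-in scaling (0.41). Their limma adjusted p were 0.0294, 0.0465 and 0.0476, and all 3 calls were lost without any single array, at up to 0.0704, 0.129 and 0.135. In lipogenesis Insig1, which anchors SREBP precursors in the endoplasmic reticulum, read 3.55, 3.03 and 2.86 in ADBAQ livers and 5.64, 4.85 and 4.68 in vehicle livers (-1.91 ± 0.30, limma adjusted p = 0.0119). Insig2, its partner of the same function, was not called (0.23 ± 0.21, limma adjusted p = 0.466). Srebf2, which encodes the SREBP of cholesterol synthesis, was lower at -0.91 ± 0.14 (limma adjusted p = 0.0115). Scap, the escort of SREBP precursors, was lower at -0.75 ± 0.14 (limma adjusted p = 0.0183, and up to 0.0609 without ADBAQ replicate 2 or 3, and about 0 on the spike-in scale). Me1, the malic enzyme that supplies NADPH to the synthase, moved the other way, at 5.51, 5.36 and 4.83 in ADBAQ livers and 4.18, 3.92 and 3.70 in vehicle livers (1.30 ± 0.21, limma adjusted p = 0.0134).

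Markers of the liver's cell types moved between the same groups. In bulk RNA, fewer cells of a type and less RNA per cell cannot be told apart. Among all named genes tested 11.3% were lower and 9.05% higher, the shares to set beside each count of called markers here. Of 10 hepatocyte markers 6 were lower (Alb, Apob, Ttr, Serpina1, Fgb and Ahsg) and 1 was higher (Tat). The 6 lower hepatocyte markers became 2 without ADBAQ replicate 1, 3 without any other single array and 1 with quantile normalization (Apob). Their summed level, as log2, ranged from 12.35 to 12.42 in ADBAQ livers and from 12.71 to 12.82 in vehicle livers. All 4 measured erythroid markers (Hba-a1, Hbb, Alas2 and Slc4a1) were higher, with a summed level of 10.09 to 10.44 in ADBAQ livers and 9.08 to 9.69 in vehicle livers, the direction of Bpgm. All 4 calls were lost without ADBAQ replicate 1 or ADBAQ replicate 3, and 2 were kept without vehicle replicate 1 or vehicle replicate 2. Of 6 cholangiocyte markers 3 were higher (Epcam, Cftr and Prom1) and 1 was lower (Krt7), with sums of 1.48 to 2.10 in ADBAQ livers and 0.81 to 1.03 in vehicle livers. All 3 higher calls were lost without ADBAQ replicate 1 or 3, while 1 was kept without vehicle replicate 1 or 2 and 2 without vehicle replicate 3, and Krt7 was not called without ADBAQ replicate 1 or 2 or vehicle replicate 3. Of 8 Kupffer cell and macrophage markers 1 was higher (Lyz2), with sums of 6.53 to 6.81 in ADBAQ livers and 6.23 to 6.47 in vehicle livers. Sums for the stellate (4.81 to 5.00 in ADBAQ livers, 4.94 to 5.37 in vehicle livers) and lymphoid markers (0.97 to 1.00 in ADBAQ livers, 0.87 to 1.33 in vehicle livers) overlapped. Endothelial sums were 4.92 to 5.11 in ADBAQ livers and 5.21 to 5.35 in vehicle livers, and adipocyte sums 4.35 to 4.57 in ADBAQ livers and 4.63 to 4.81 in vehicle livers, with the defining adipocyte genes Adipoq and Lep not well above background. A sum follows its brightest markers, here Kdr (-0.28) for endothelial and Adipor2 (-0.26) and Cfd (-0.22) for adipocyte. The dimmer Tek (0.35) and Fabp4 (1.06) went the other way, so these sums do not speak for their cell types. With spike-in scaling the log2 fold changes of the 6 lower hepatocyte markers and of Krt7 turned positive, from 0.083 for Apob to 0.41 for Alb. These are signs and not calls. As that scaling adds 0.76 to every log2 fold change, the group differences in the hepatocyte, endothelial and adipocyte sums turned in sign too. None of the 8 stellate, 4 endothelial, 6 lymphoid and 3 adipocyte markers measured was called by limma. At an unadjusted p under 0.05 there were 2 lower and 1 higher stellate markers, 2 lower endothelial markers, 1 lower and 1 higher adipocyte marker and no lymphoid marker. No share of all named genes at that unadjusted p is given here, so these counts have no background. The part of these shifts in the members' values was not tested. The arrays of a slide and of a scan day were all of 1 group, so slide and treatment cannot be told apart.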

How the data were processed

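Liver RNA of 6 rats was hybridised to 1-colour Agilent arrays. Per the file headers the deposited scanner files hold intensity values read by Feature Extraction 10.7.1.1 (10.7 in the submitters' processing notes) on a design built on rn4: the processed signal, already background-subtracted, and medians of each spot and of its surroundings. Further deposited columns of the kind other are flags (well above background, saturated, outlier, control). The authors' deposited series table holds a ratio: set against the scanner values, it was each processed signal over the 75th percentile of its array, linear and not centred by gene, with column medians of 0.093, 0.0971 and 0.0952 for ADBAQ and 0.0967, 0.097 and 0.0983 for vehicle.

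Of 61657 probes, 27460 were named for 15284 genes through RefSeq accessions, and 34197 stayed unnamed. Probe positions and sequences were not used here, so cross-hybridisation between near-identical genes (Scd and Scd2, Gapdh and its pseudogenes) was not tested. The 75th percentile was 643, 570 and 596 on ADBAQ arrays and 455, 461 and 433 on vehicle arrays. Between 62.1% and 65.3% of probes were well above background and none was saturated. Outlier spots, 0 to 2 per array, were left out. Levels were processed signals over the 75th percentile of the same array, as log2. Probes were kept where 1 group or both had all 3 arrays well above background (38695 probes, 11344 named genes). ADBAQ was set against vehicle by lmFit and eBayes of limma 3.58.1 (R 4.3.3), which was also tested on simulated data, with Benjamini-Hochberg adjustment over the probes kept. A gene is its brightest kept probe. A fold at a probe dim throughout a group is a bound, taken per array against the lowest signal that was well above background, or the probe's own signal where higher. A cell type's summed level is log2 of the sum of its markers' scaled signals. The number of arrays limits the precision.

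Each array is a separate animal per the labels' treatment protocol. The members and gene lists were chosen with earlier results of these data known, so lists are described and not tested. Named beyond the members are G6pc1, Pcx, Pdk4, Ppargc1a, Me1, Insig1 and Insig2, and per pathway up to 4 called genes of largest change whose groups did not overlap, apart from some genes that are not reported here. The alternatives were normexp (offset 50, on the median signal), quantile, median and spike-in scaling, other filters on dim probes, the series table, other variance models, a replicate block, mean of probes and leaving out each array.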

Additional observations from a re-analysis of the deposited data

How the results depend on the processing

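The main count of 14 lower members was between 12 and 15 under every setting other than spike-in scaling (3), the replicate block (8) and single arrays left out (8 to 12). The 1 higher member became 3 with normexp, 20 with spike-in scaling and 2 with quantile normalization, with no filter on dim probes, with probes well above background on all 6 arrays, with trended robust variances and with array weights, and 0 to 2 with an array left out. Among the other pathway genes the 13 lower became 2 with spike-in scaling, 7 in the replicate block and 6 to 8 with an array left out, and the 8 higher became 60, 3 and 3 to 4. Over all named genes limma called 1281 lower and 1027 higher, 2647 and 1394 with normexp, 188 and 8942 with spike-in scaling and 553 and 429 in the replicate block. With an array left out these counts were 520 to 851 and 402 to 714. Medians turned with spike-in scaling to 0.53 for glycolysis, 0.019 for gluconeogenesis, 0.57 for glycogen and 0.65 for lipogenesis, since that scaling adds one constant to all genes. With quantile normalization the gluconeogenesis median was -0.53. With an array left out the medians ranged from -0.29 to -0.15 for glycolysis, from -0.80 to -0.65 for gluconeogenesis, from -0.32 to -0.04 for glycogen and from -0.23 to -0.02 for lipogenesis, and lipogenesis exceeded glycolysis by 0.01 to 0.27. Spike-in scaling turned Gpi (0.51), Pfkl (0.53), Pgk1 (0.73), Eno1 (0.63), Ldha (0.18), Fbp1 (0.25), Gys2 (0.57), Pygl (0.14), Mlxipl (0.072), Acly (0.26), Acss2 (0.65), Acaca (0.44), Acacb (0.65), Fasn (0.038), Elovl2 (0.21), Thrsp (0.67), Agpat2 (0.67), Dgat1 (0.74), Dgat2 (0.16), G6pc1 (0.037), Pc (0.12), Foxo1 (0.28), Gys1 (0.41) and Scap (0.0045). Other settings turned values near 0: Pgk1 (0.10) and Dgat1 (0.043) with quantile normalization, Pgk1 (0.0043) and Dgat1 (0.018) with median centring, Acacb (0.21) and Scd2 (-0.077) with the mean of probes, Thrsp (0.014) with normexp and Elovl5 (-0.023) with array weights. With an array left out 7 genes crossed 0, with ranges of -0.068 to 0.014 for Pgk1, -0.23 to 0.034 for Acss2, -0.28 to 0.11 for Acacb, -0.072 to 0.19 for Elovl5, -0.19 to 1.16 for Fads1, -0.20 to 0.028 for Agpat2 and -0.067 to 0.029 for Dgat1. The cause of these reversals was not tested. Of the single-gene values with an array left out, 245 kept direction and call, 67 lost the call, 1 gained it and 11 turned, and under the other settings the numbers were 516, 28, 18 and 32. Taken over the probes, the replicate numbers gave no sign of pairing: deviations of same-numbered rats correlated at -0.03, -0.02 and -0.0046. A shared order in single genes was not tested. Fads1, Fads2, Scd, Elovl6, Eno1, Fbp1, Gys2, Acss2 and Dgat1 fell from replicate 1 to replicate 2 to replicate 3 in both groups. So did Insig1, Me1 and Pcx among the other pathway genes, while other members such as Pck1, Pfkfb1 and Ppp1r3c did not. The bearing of this order on the unpaired calls was not tested beyond the replicate block. Blocking on the replicate number left 8 lower members and 1 higher. Slide as a block was not run, because each slide held 1 group. Dim genes such as Lpin1 and Elovl6 are limited by signal over background.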
